A study of Mus musculus with 16 samples.

Results

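The RNA of 10 genes that neutrophils use for their granules, secreted defense proteins and chemokine sensing was followed through 16 bulk RNA-Seq libraries of mouse brain CD11b+ cells. The genes were S100a8, S100a9, Ngp, Camp, Lcn2, Ltf, Retnlg, Mmp8, Mmp9 and Cxcr2, chosen by symbol alone, and all 10 of them were among the 55385 genes listed in the counts and among the 14513 genes that passed the filter on low counts. The cells came from female mice aged 20 weeks, with 4 libraries for each of 4 genotypes. WT mice carried an intact Card9 gene and no transgenes, Card9-/- mice carried a germline deletion of Card9, 5xFAD mice carried transgenes of familial Alzheimer's disease that are expressed in neurons under the Thy1 promoter, and Card9-/-5xFAD mice carried both the deletion and the transgenes. CARD9 is an adaptor protein that relays signals from C-type lectin receptors in myeloid cells. The brains were perfused, the meninges and choroid plexus were taken off, and cells that bound magnetic beads against CD11b were sequenced. CD11b is carried by microglia and also by monocytes, macrophages and neutrophils, so the bead sort keeps any neutrophil in the suspension. The authors checked the sorting protocol by flow cytometry and reported that most sorted cells had the surface marker levels of microglia.

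Neutrophils fill their granules in the bone marrow, in a fixed order. Primary granules, which hold myeloperoxidase and elastase, are made first, then the specific granules with lactoferrin, lipocalin 2, cathelicidin and neutrophilic granule protein, and last the gelatinase granules, while calprotectin fills the cytosol of the mature cell. Transcripts of the specific granule proteins are therefore most abundant in immature cells of the marrow, whereas S100a8 and S100a9 stay high in neutrophils of the blood. In the healthy brain these cells are found mostly in vessels and at the borders, and few are in the tissue itself.

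S100a8 (chr3:90668978-90670035, plus strand) and S100a9 (chr3:90692632-90695721, minus strand) are neighbors in the GRCm38 assembly, 22597 bases apart. Camp (chr9:109847379-109849617), Ngp (chr9:110419747-110423012) and Ltf (chr9:111019271-111042767) lie within 1195388 bases of each other, and Mmp8 (chr9:7558456-7568485) lies on the same chromosome. Lcn2 (chr2:32384633-32388252) is 6023715 bases from Card9 and Mmp9 (chr2:164940780-164955850) is 138579862 bases from it. Retnlg (chr16:48872621-48874496) and Cxcr2 (chr1:74153989-74161246) stand alone. No other gene of the GENCODE M21 annotation overlaps any of the 10. The 250 bases before the RefSeq start site were available for 9 of the 10 genes, all but Mmp9. The letters TTGCNNAA, a form of the site that C/EBP factors bind, were found on either strand in 6 of these 9 promoters and in 9.56% of all 32851 promoters of the same length. GAGGAA, the core of a PU.1 site, was found in 5 of the 9 and in 23.3% of all promoters, and TGACGTNA, a form of the cAMP response element, in 0 of the 9 and in 2.52%. A match of letters is a description and not a binding site. The promoters of S100a9, Retnlg and Mmp8 are shown 5′ to 3′ on the strand of the gene, since S100a9 and Retnlg followed one pattern among the libraries and Mmp8 the other, and none of them overlaps an annotated gene; capitals mark the letters of the C/EBP and PU.1 forms on either strand. They lie at chr3:90695722-90695971 (minus strand), chr16:48872358-48872607 (plus strand) and chr9:7558179-7558428 (plus strand) of GRCm38.p6.
S100a9: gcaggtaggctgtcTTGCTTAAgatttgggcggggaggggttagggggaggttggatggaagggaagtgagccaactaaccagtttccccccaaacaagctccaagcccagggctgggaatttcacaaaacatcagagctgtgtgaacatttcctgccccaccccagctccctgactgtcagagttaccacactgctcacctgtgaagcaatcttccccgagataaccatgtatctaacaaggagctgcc
Retnlg: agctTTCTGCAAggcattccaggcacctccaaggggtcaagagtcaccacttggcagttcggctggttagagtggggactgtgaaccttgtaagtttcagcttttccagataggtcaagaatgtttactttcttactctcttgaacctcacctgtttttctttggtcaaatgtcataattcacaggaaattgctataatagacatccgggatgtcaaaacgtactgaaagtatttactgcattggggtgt
Mmp8: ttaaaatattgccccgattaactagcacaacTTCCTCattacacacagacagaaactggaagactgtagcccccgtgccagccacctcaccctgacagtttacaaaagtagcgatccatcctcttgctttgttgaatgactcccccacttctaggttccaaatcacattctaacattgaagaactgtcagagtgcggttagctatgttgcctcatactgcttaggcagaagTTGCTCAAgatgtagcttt

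Between 2970148 and 19333325 reads per library were counted on genes. Values are CPM, the reads of a gene relative to all reads on genes of its library after TMM scaling, and 9 to 10488 reads stood behind each value of the 10 genes. Card9 itself was read in every library, at 36.9 ± 16.3 CPM (SD, n = 4) in WT, 29.1 ± 8.36 CPM in libraries labelled Card9-/-, 27.7 ± 8.28 CPM in 5xFAD and 20.2 ± 11.8 CPM in libraries labelled Card9-/-5xFAD, with overlapping ranges. The counts do not show which exons those reads came from, so each Card9 direction below rests on the labels. Nothing in the labels says how many mice went into a library, and the p-values measure the spread between these libraries. In bulk RNA, fewer neutrophils and less RNA per neutrophil cannot be told apart. The counts also do not show which of the sorted cells the reads of the 10 genes came from.

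The label of the gene set was checked against further neutrophil genes. Ly6g, the defining surface marker of mouse neutrophils, was read in all 16 libraries, at 0.869 to 7.94 CPM and from as few as 5 reads. It was highest in WT replicate 3. In WT replicate 1, Card9-/- replicate 4, 5xFAD replicate 1 and Card9-/-5xFAD replicate 4, which led for S100a9, it was at 5.11, 3.6, 6.22 and 2.8 CPM. Of 20 further granule genes all 20 passed the filter, and of 26 further surface and cytosol genes 25 were listed and 20 passed. The granule genes summed to 1684 to 5625 CPM in those 4 libraries and to 1818 to 6755 CPM in the others. Most of these sums was Lyz2, which microglia also make, so they do not measure neutrophils alone. Lyz2 made up 5265 of the 5625 CPM in 5xFAD replicate 1 and 6301 of the 6755 CPM in 5xFAD replicate 3. Transcripts of primary granules were present at low levels and are named here after their values were seen: Elane (neutrophil elastase) reached 22.8 CPM and Mpo (myeloperoxidase) 17.2 CPM, both in WT replicate 3, and both were at 0 in 5xFAD replicate 1. The 12 microglia genes together made up 20289 to 46366 CPM, against 510.1 to 6398 CPM for the 10 neutrophil genes.

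Compared per kilobase of exon, the calprotectin genes led. The mean level over the 16 libraries was 1470 CPM per kb for S100a9 and 707 CPM per kb for S100a8, whose proteins pair to form calprotectin, a calcium- and zinc-binding antimicrobial complex. Retnlg, which encodes the secreted resistin-like molecule gamma, followed at 372 CPM per kb, then Ngp (neutrophilic granule protein) at 225 CPM per kb and Camp (cathelicidin, the precursor of an antimicrobial peptide) at 162 CPM per kb. Lcn2, which encodes a carrier of bacterial siderophores, had 21.8 CPM per kb and Ltf (lactoferrin, an iron-binding protein) 20.2 CPM per kb. The protease genes Mmp8 (neutrophil collagenase) and Mmp9 (gelatinase B) had 7.85 and 6.58 CPM per kb, and Cxcr2, the receptor for neutrophil-attracting chemokines, had 3.63 CPM per kb. By the median over the libraries Ngp (181 CPM per kb) stood above Retnlg (173 CPM per kb), and it did so in 10 of the 16 libraries. Each gene varied widely between libraries, from 6.01-fold between its highest and lowest library for Cxcr2 to 122-fold for Ltf.

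S100a9 was measured at 1606, 302, 594 and 299.8 CPM in WT replicates 1 to 4, at 334, 172, 283 and 3298 CPM in Card9-/-, at 956, 261, 561 and 251 CPM in 5xFAD, and at 167, 239.7, 202 and 2745 CPM in Card9-/-5xFAD. The highest library of each genotype was WT replicate 1, Card9-/- replicate 4, 5xFAD replicate 1 and Card9-/-5xFAD replicate 4, farthest above its group in Card9-/- and Card9-/-5xFAD, and the 4 genotypes overlapped. S100a8 had the same 4 leading libraries, at 1019, 1790, 629.8 and 1744 CPM, against 111 to 435 CPM in the other 12. The correlation of S100a8 and S100a9 over the 16 libraries was r = 0.997 (Spearman rho = 0.974, permutation p = 1e-05 for both, the smallest that 100000 resamples can give, adjusted p = 9e-05 and 0.000112 over 45 gene pairs), and it was r = 0.995 without Card9-/- replicate 4 and Card9-/-5xFAD replicate 4. Retnlg was at 651, 137, 168 and 96.3 CPM in WT, 109, 82.9, 77.9 and 751 CPM in Card9-/-, 296, 63.3, 197 and 69.2 CPM in 5xFAD, and 67.4, 80.4, 75.6 and 612 CPM in Card9-/-5xFAD. It too was highest in those 4 libraries.

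Camp was at 165, 58.1, 201 and 70.1 CPM in WT, 71.6, 68.3, 73 and 267 CPM in Card9-/-, 61.9, 43.7, 142 and 50.5 CPM in 5xFAD, and 20.1, 44.4, 12.2 and 614 CPM in Card9-/-5xFAD. Card9-/-5xFAD thus held both its highest and its lowest library, and Card9-/-5xFAD replicate 4 alone held 31.3% of the CPM summed over the 16 libraries. Ngp, the Camp neighbor on chromosome 9, was at 138, 298, 783 and 309 CPM in WT, 336, 434, 352 and 149 CPM in Card9-/-, 142, 158, 503 and 198 CPM in 5xFAD, and 122, 204, 40.5 and 238 CPM in Card9-/-5xFAD. It was highest in WT replicate 3 and 5xFAD replicate 3, and WT replicate 1, Card9-/- replicate 4 and 5xFAD replicate 1, which led for S100a9, were the lowest libraries of their genotypes for Ngp. Lcn2 was also highest in WT replicate 3 (124 CPM) and lowest in Card9-/-5xFAD replicate 3 (7.99 CPM).

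Ltf was at 11.3, 88.4, 171 and 83.4 CPM in WT, 107, 254, 112 and 38.9 CPM in Card9-/-, 5.0, 23.4, 50.7 and 53.8 CPM in 5xFAD, and 35.3, 59.6, 2.09 and 21.2 CPM in Card9-/-5xFAD. WT replicate 1, Card9-/- replicate 4 and 5xFAD replicate 1 were the lowest of their genotypes. Mmp8 was at 11.8, 33.2, 35.2 and 21.6 CPM in WT, 26.2, 50.01, 24.4 and 19.3 CPM in Card9-/-, 4.85, 7.95, 14.9 and 11.7 CPM in 5xFAD, and 11, 18.5, 3.48 and 10.4 CPM in Card9-/-5xFAD. Ltf, Mmp8 and Mmp9 were all highest in Card9-/- replicate 2. Cxcr2 was highest in WT replicate 1 at 21.7 CPM, and 5xFAD replicate 1 (10.3 CPM) was the highest of its genotype. Card9-/-5xFAD replicate 4, which also led for S100a9, was the lowest of all 16 libraries for Cxcr2 (3.6 CPM, 9 reads). Card9-/- replicate 4 was the lowest of its genotype (8.51 CPM, 26 reads). The library in which each gene was highest was the same for all 10 genes with DESeq2 size factors and with raw library totals.

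**Figure D1:**
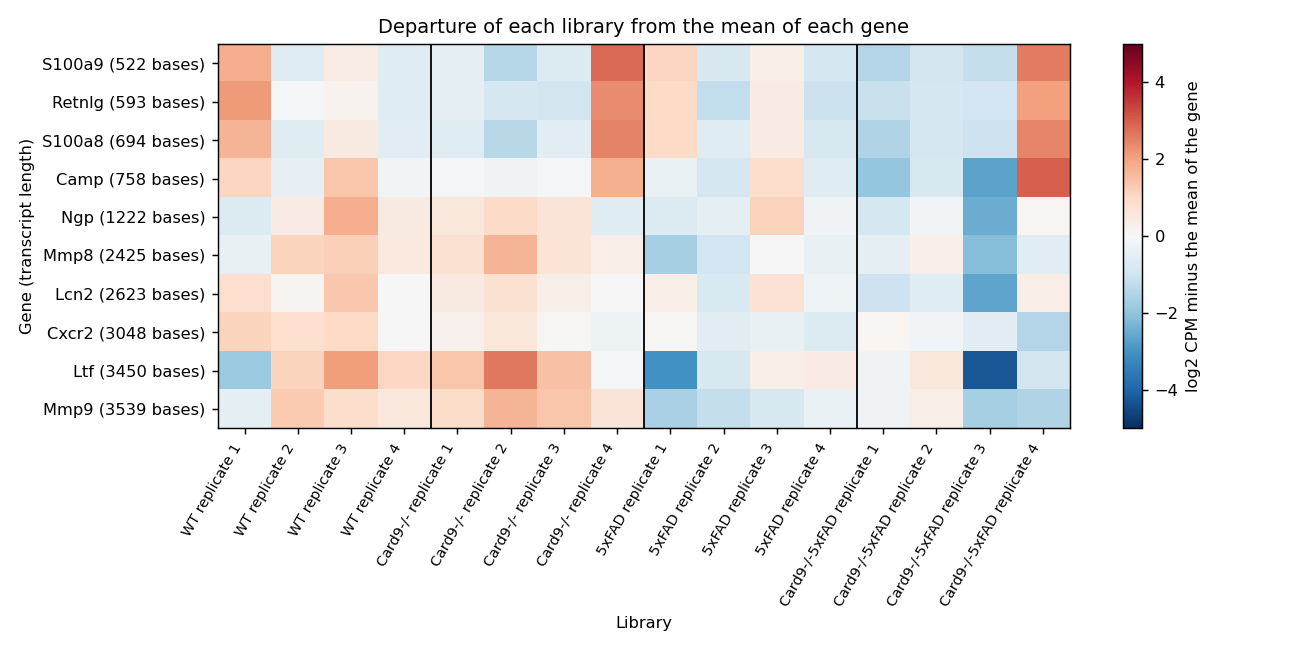
Log2 CPM of each gene in each library minus the mean of that gene over the 16 libraries, from blue (below the mean) to red (above it), with genes ordered from the shortest transcript (S100a9, 522 bases of exon) to the longest (Mmp9, 3539 bases) and black lines between the genotypes. S100a9, Retnlg and S100a8 are reddest in WT replicate 1, Card9-/- replicate 4, 5xFAD replicate 1 and Card9-/-5xFAD replicate 4, and Ltf is bluest in Card9-/-5xFAD replicate 3.

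Most of the genes were sorted by transcript length into a short and a long class. Whether length or another trait of the genes sets these classes was not tested. The 4 genes with 522 to 758 bases of exon (S100a9, Retnlg, S100a8 and Camp) correlated with each other at r = 0.79 to 0.997 over the 16 libraries (6 pairs), and the 5 genes with 2425 to 3539 bases (Mmp8, Lcn2, Cxcr2, Ltf and Mmp9) at r = 0.34 to 0.94 (10 pairs). Between the short and the long genes, 12 of 20 pairs had an r below 0, with a median of −0.10. Ngp, with 1222 bases, was in neither class. Its r was 0.851 with Ltf, 0.825 with Lcn2, 0.809 with Mmp8, 0.603 with Mmp9 and 0.323 with Cxcr2. With the short genes it was 0.504 for Camp, 0.00759 for S100a8, −0.00658 for S100a9 and −0.0127 for Retnlg. After the mean of each genotype was subtracted, the short genes had r = 0.79 to 0.998 with each other. Ltf, Mmp8 and Mmp9 then had r = 0.843 to 0.96. Cxcr2 had only 0.0128 with Ltf, 0.0456 with Lcn2, 0.102 with Mmp8 and 0.296 with Mmp9, and Lcn2 had 0.115 with Mmp9. Lcn2 was an exception, with an r above 0 to each of the 4 short genes (0.408 to S100a8, 0.404 to S100a9, 0.436 to Retnlg and 0.732 to Camp), and its r to Camp was above its r to any other long gene (0.428 to 0.634). Mmp8 and Ltf had r = 0.944 (rho = 0.929, permutation p = 1e-05, adjusted p = 9e-05 for r and 0.000112 for rho, r = 0.885 without 5xFAD replicate 1 and Card9-/-5xFAD replicate 3). S100a9 and Mmp9 had r = −0.27 (rho = −0.14, permutation p = 0.32 and 0.611, adjusted p = 0.458 and 0.76, r = −0.28 without Card9-/- replicate 4 and Card9-/-5xFAD replicate 4), and r was −0.62 after the mean of each genotype was subtracted. In reads, S100a9 stood to Mmp9 as 2.97 to 1 in Card9-/- replicate 2 and as 428 to 1 in Card9-/-5xFAD replicate 4. The split by length was made after the values were seen, and the permutations moved libraries across genotypes.

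Other values were compared between the 4 libraries that led for S100a9 and the rest. Of the ranges given here, only those of the choroid plexus genes did not overlap. In WT replicate 1, Card9-/- replicate 4, 5xFAD replicate 1 and Card9-/-5xFAD replicate 4, the summed CPM of the 12 microglia genes (12 of 12 passed the filter) was 21828, 20318, 27946 and 20289, against 26136 to 46366 in the other 12 libraries. The slope of log2 expression on log2 transcript length over all genes was −0.14, −0.14, −0.22 and −0.15 in those 4 libraries and −0.16 to 0.29 in the others. It was −0.15 in 5xFAD replicate 3 and −0.16 in Card9-/-5xFAD replicate 3, which did not lead for S100a9. The 9 genes of border-associated macrophages (9 of 9 passed) summed to 923 to 2440 CPM in the 4 libraries and to 432 to 1317 CPM in the others, and the 7 genes of the choroid plexus (6 of 7 passed) to 1205 to 3005 CPM and to 3.16 to 1195 CPM. Reads on genes numbered 2970148 to 7188423 in the 4 libraries and 6081583 to 19333325 in the others. The 7 astrocyte genes (7 of 7 passed) summed to 256 to 479 CPM in the 4 libraries and to 172 to 260 CPM in the others. For the 12 T or NK cell genes (7 of 12 passed) the sums were 87.7 to 309 CPM and 33.6 to 152 CPM. Other lists ran lower in the 4 libraries. The 10 B cell genes (5 of 10 passed) summed to 446 to 638 CPM there and to 626 to 1199 CPM in the others. The sums were 192 to 386 CPM and 282 to 942 CPM for 7 oligodendrocyte genes (5 of 7 passed). For 8 endothelial genes (8 of 8 passed) they were 344 to 1015 CPM and 412 to 1304 CPM. The part that any of these had in the levels of the neutrophil genes was not tested.

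**Figure D2:**
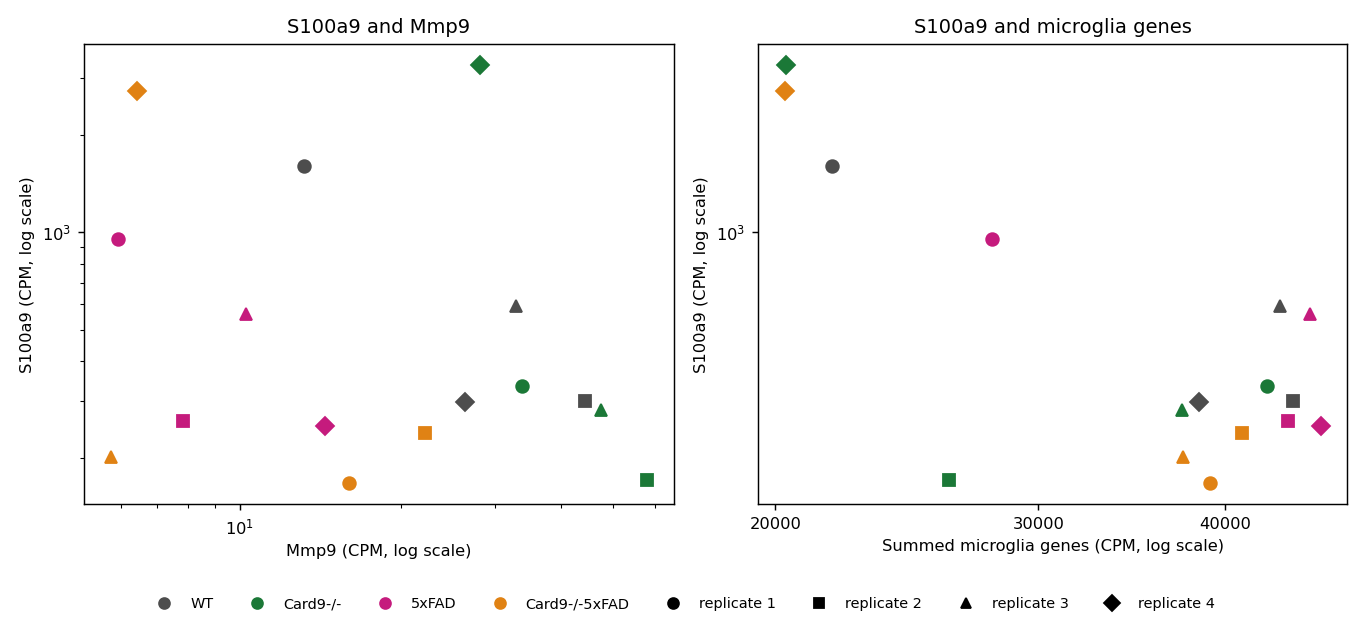
S100a9 in CPM (vertical axis, log scale) against Mmp9 in CPM (left, log scale) and against the summed CPM of 12 microglia genes (right, log scale), with 1 point per library, colors for the genotypes and marker shapes for the replicate numbers. The 4 libraries with S100a9 from 956 to 3298 CPM spread from 5.91 to 28.1 CPM of Mmp9 and sit between 20289 and 27946 CPM of the microglia genes.

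The comparison of 5xFAD with WT asks how brain CD11b+ cells differ in the presence of the transgenes, and here how much RNA of the neutrophil genes came with them. Mmp9 was at 13.2, 44.2, 32.9 and 26.4 CPM in WT and at 5.91, 7.81, 10.3 and 14.4 CPM in 5xFAD. Only WT replicate 1 lay within the 5xFAD range. The means were 29.2 ± 13 CPM (SD, n = 4) and 9.6 ± 3.68 CPM (SD, n = 4), and the log2 fold change was −1.60 (SE 0.46, FDR = 0.136 in edgeR's quasi-likelihood test). Cxcr2 was at 21.7, 17.9, 20.1 and 9.95 CPM in WT and 10.3, 6.99, 7.73 and 6.27 CPM in 5xFAD, with WT replicate 4 alone below the highest 5xFAD library. Its log2 fold change was −1.15 (SE 0.34, edgeR FDR = 0.157). Mmp8 had a log2 fold change of −1.37 (SE 0.49, edgeR FDR = 0.265) and Ltf one of −1.41 (SE 0.88, edgeR FDR = 0.595).

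At the FDR threshold of 0.1, 0 of the 10 genes passed in 5xFAD against WT, where 2.09% of all tested genes did. At an unadjusted p under 0.05, 3 of the 10 were lower (Mmp9, Cxcr2 and Mmp8), against 5.72% of all genes. The ranges of the groups were apart, with 5xFAD lower, for 0 of the 10 genes and for 3.69% of all genes. All 10 log2 fold changes were below 0, as were 61.1% of those of all genes, with a median of −0.74 for the 10 and −0.15 for all. DESeq2 called 2 of the 10, Mmp9 (FDR = 0.0458 in a DESeq2 fit of all 16 libraries) and Cxcr2 (DESeq2 FDR = 0.0665), in a fit where 3.24% of all genes passed. Both also passed in edgeR without the 5 libraries whose microglia genes summed to under 30000 CPM (Mmp9 −1.64, edgeR FDR = 0.0498; Cxcr2 −1.16, edgeR FDR = 0.0514), where 8.44% of all genes passed. The short genes had log2 fold changes of −0.38 (S100a8, SE 0.95), −0.46 (S100a9, SE 1.02), −0.75 (Retnlg, SE 0.92) and −0.73 (Camp, SE 0.95), all smaller than their errors, and without WT replicate 1 those of S100a8, S100a9 and Retnlg were 0.33, 0.34 and 0.22.

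The comparison was also made with the replicate number as a block, since deviations of same-numbered libraries had an r above 0 between WT and 5xFAD. The labels do not say what a number marks, and some libraries correlated better with another number. WT replicate 2 had r = 0.433 with 5xFAD replicate 4 and 0.275 with 5xFAD replicate 2. With 1 block term for all genotypes, Cxcr2 passed (log2 fold change −1.11, edgeR FDR = 0.0628) and the other 9 genes did not, with 2.11% of all genes passing. With the block within each Card9 genotype, 3 of the 10 fell: Mmp9 (−1.55, edgeR FDR = 0.0127), Mmp8 (−1.36, edgeR FDR = 0.0125) and Cxcr2 (−1.12, edgeR FDR = 0.0127). In that fit, which was chosen after the data were seen, 16% of all tested genes passed in either direction.

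In Card9-/-5xFAD against Card9-/-, the same question was asked in the absence of Card9. Mmp9 was at 33.7, 57.9, 47.5 and 28.1 CPM in Card9-/- and at 16, 22.2, 5.73 and 6.41 CPM in Card9-/-5xFAD, with no overlap. The means were 41.8 ± 13.4 CPM (SD, n = 4) and 12.6 ± 7.96 CPM (SD, n = 4). Mmp9 fell by 1.71 on the log2 scale (SE 0.46, edgeR FDR = 0.0986) and was the only one of the 10 genes to pass, where 1.97% of all tested genes passed. Its FDR lay close to the threshold and was 0.106 to 0.319 when any of 13 of the 16 libraries was left out, with the log2 fold change between −2.14 and −1.47 over all 16 omissions. Without the 5 libraries whose microglia genes summed to under 30000 CPM, it was −1.45 (edgeR FDR = 0.118). That fit lacks Card9-/- replicates 2 and 4 and Card9-/-5xFAD replicate 4, and Card9-/- replicate 2 was the highest library for Mmp9. Mmp8 was also without overlap, at 19.3 to 50.01 CPM in Card9-/- and 3.48 to 18.5 CPM in Card9-/-5xFAD, with a log2 fold change of −1.47 (SE 0.49, edgeR FDR = 0.197). Such a gap, with Card9-/-5xFAD lower, was found for these 2 of the 10 genes and for 3.48% of all genes.

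Ltf had the most negative value, −2.11 (SE 0.90, edgeR FDR = 0.339), and its ranges overlapped. Its lowest library, Card9-/-5xFAD replicate 3, held 12 reads of Ltf, and without it the value was −1.72. Lcn2 had −1.06 (SE 0.49, edgeR FDR = 0.399) and Ngp −1.07 (SE 0.59, edgeR FDR = 0.492). At an unadjusted p under 0.05, 4 of the 10 were lower (Mmp9, Mmp8, Ltf and Lcn2), against 5.72% of all genes. In all, 9 of 10 log2 fold changes were below 0, as were 60.6% of those of all genes, with a median of −0.81 for the 10 and −0.15 for all. Camp was the exception at 0.52 (SE 0.95), and its value was −2.21 without Card9-/-5xFAD replicate 4. S100a8 (−0.10, SE 0.95), S100a9 (−0.29, SE 1.02) and Retnlg (−0.29, SE 0.91) had values of 1.57, 1.66 and 1.20 without Card9-/- replicate 4.

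With the replicate number as a block within each Card9 genotype, 5 of the 10 genes fell in Card9-/-5xFAD against Card9-/-, in a fit where 20.4% of all tested genes passed in either direction. They were Mmp9 (−1.84, edgeR FDR = 0.00446), Mmp8 (−1.57, edgeR FDR = 0.00538), Ltf (−2.30, edgeR FDR = 0.0152), Lcn2 (−1.35, edgeR FDR = 0.0313) and Ngp (−1.25, edgeR FDR = 0.0802). S100a8, S100a9, Retnlg, Camp and Cxcr2 did not pass in that fit, which was chosen after the data were seen. The 2 transgene comparisons share no library.

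A few genes of border-associated macrophages also passed in these comparisons, where 2.09% and 1.97% of all genes passed. Of 9 genes of border-associated macrophages, 3 fell in 5xFAD against WT (Mrc1, Lyve1 and F13a1) and 1 in Card9-/-5xFAD against Card9-/- (Mrc1), and their sums were 1146 to 1960 CPM in WT, 1022 to 2440 CPM in Card9-/-, 646 to 923 CPM in 5xFAD and 432 to 2084 CPM in Card9-/-5xFAD. Of 12 monocyte genes 11 passed the filter, and 1 of them, F13a1, which stands on both lists, fell in 5xFAD against WT. The monocyte genes summed to 529.6 to 742 CPM in WT, 434 to 630.4 CPM in Card9-/-, 263 to 428 CPM in 5xFAD and 214 to 475 CPM in Card9-/-5xFAD. Of the 12 microglia genes 0 passed in either comparison. The part of these cells in the values of the neutrophil genes was not tested.

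**Figure D3:**
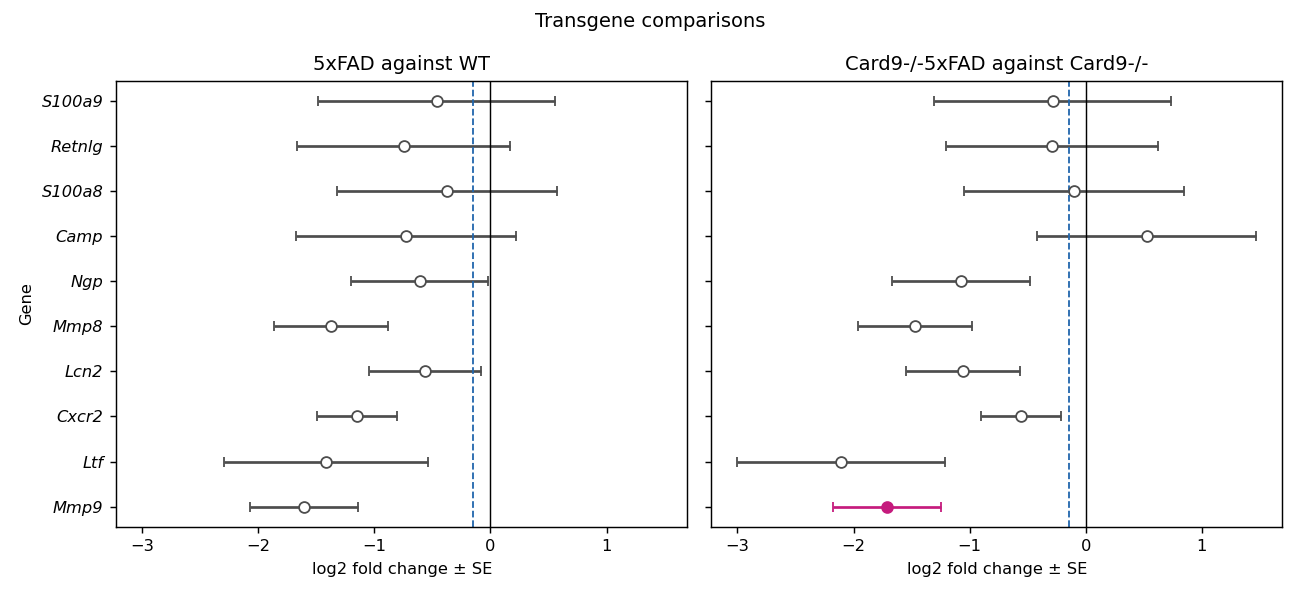
Log2 fold changes (horizontal axis) of the 10 genes, ordered by transcript length, in 5xFAD against WT (left) and Card9-/-5xFAD against Card9-/- (right), with bars of 1 SE, a filled point for a gene with FDR under 0.1 and a dashed line at the median of all tested genes. Mmp9 on the right (−1.71) is the only filled point, and the 4 shortest genes have the widest bars together with Ltf.

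A test for any difference among the 4 genotypes called Mmp9 (edgeR FDR = 0.0372) and none of the other 9 genes, against 4.49% of all tested genes. The values of Mmp8 (edgeR FDR = 0.125) and Cxcr2 (edgeR FDR = 0.137) were next. Mmp9 lost its call without Card9-/- replicate 2, without 5xFAD replicate 2 and without 5xFAD replicate 3, and 3 genes were called (Mmp8, Mmp9 and Cxcr2) without Card9-/- replicate 4, with 7.34% of all genes. With 1 block term for the replicate number, Mmp9 and Cxcr2 were called, 2 of the 10 genes, with 6.28% of all genes.

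**Figure D4:**
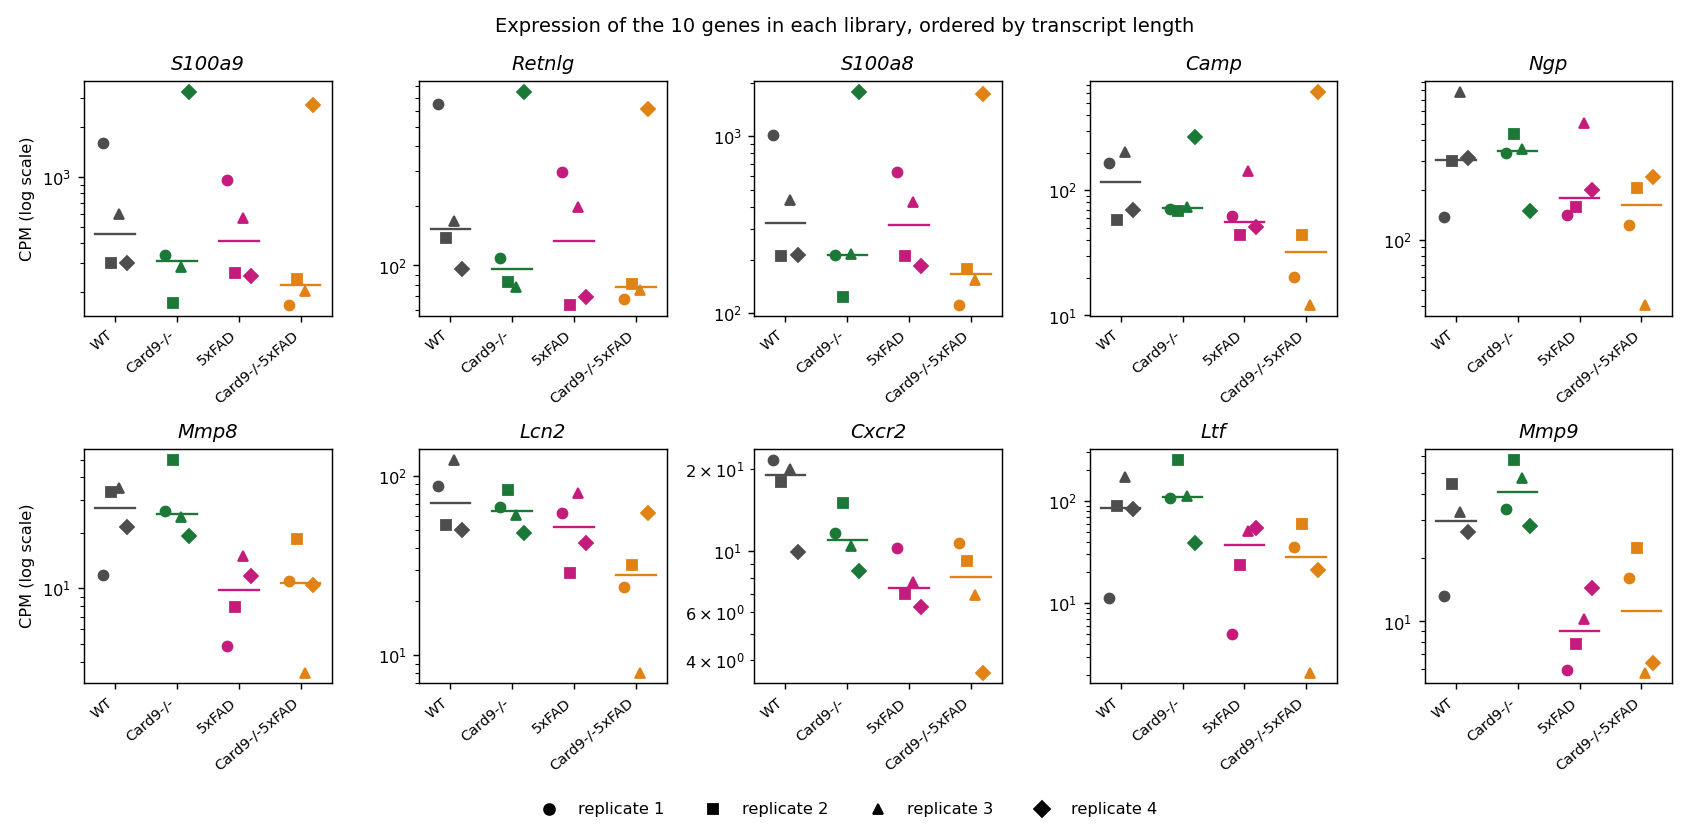
CPM of each gene (vertical axes, log scale) in the 4 libraries of each genotype, with marker shapes for the replicate numbers and a line at the median of the genotype. Mmp9 and Mmp8 of Card9-/-5xFAD lie wholly below those of Card9-/-, and 1 library stands far above the rest in Card9-/- and in Card9-/-5xFAD for S100a9, Retnlg and S100a8.

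The comparisons of Card9 genotype ask whether loss of Card9 alters these cells with or without the transgenes. In Card9-/- against WT, 0 of the 10 genes passed, with 0% of all genes, and 0 of the 10 had an unadjusted p under 0.05. The log2 fold changes ran from −0.60 for Cxcr2 (SE 0.34, edgeR FDR = 0.97) to 0.54 for S100a9 (SE 1.02, edgeR FDR = 0.972), and Mmp9 had 0.52 (SE 0.45, edgeR FDR = 0.97). In Card9-/-5xFAD against 5xFAD, 0 of the 10 passed, again with 0% of all genes, and 0 of the 10 had an unadjusted p under 0.05. The values ran from −0.77 for Lcn2 (SE 0.49) to 1.20 for Camp (SE 0.96), and Mmp9 had 0.41 (SE 0.46, edgeR FDR = 0.993). For the interaction of Card9 genotype and transgenes, 0 of the 10 genes and 0% of all genes passed, and 0 of the 10 had an unadjusted p under 0.05. The change of Mmp9 with the transgenes differed by −0.11 (SE 0.64) between the Card9 genotypes, and that of Cxcr2 by 0.59 (SE 0.48). DESeq2 on all 16 libraries also called 0 of the 10 genes in each of these 3 comparisons. With errors of this size, a value that missed the threshold does not show equal levels.

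Of the 20 further granule genes, 0 passed in either transgene comparison, where 2.09% and 1.97% of all genes did. The median log2 fold change was −0.89 in 5xFAD against WT and −0.97 in Card9-/-5xFAD against Card9-/-, beside −0.15 for all genes in both. Chil1, which encodes a chitinase-like protein also made by macrophages, passed the test for any difference (edgeR FDR = 0.0464), at 11.8 to 43.6 CPM in WT, 11.1 to 22.5 CPM in Card9-/-, 9.86 to 16.4 CPM in 5xFAD and 6.6 to 10.7 CPM in Card9-/-5xFAD. Lyz2 (lysozyme, also made by microglia) passed too (edgeR FDR = 0.0764), at 1566 to 3202 CPM in WT, 1099 to 2512 CPM in Card9-/-, 4284 to 6301 CPM in 5xFAD and 1692 to 5218 CPM in Card9-/-5xFAD, and its FDR in 5xFAD against WT was 0.211. Thus 2 of the 20 genes passed the test for any difference, which 4.49% of all genes passed. The other most abundant genes of this list were Cybb, a subunit of the phagocyte oxidase, the chitinase-like Chil3, and Pglyrp1, a peptidoglycan-binding protein, at up to 180 CPM, 172 CPM and 146 CPM, and none of them passed. Genes of this list followed both patterns seen in the 10 genes, as named here after their values were seen. Wfdc21, with 434 bases of exon, was at 59.9, 240.1, 41.6 and 135 CPM in the 4 libraries that led for S100a9 and at 2.26 to 31.7 CPM in the others, whereas Cd177, with 2840 bases, was highest in Card9-/- replicate 2 (41.3 CPM) like Ltf. Other genes of the list did not sort by length. Elane (984 bases), Ctsg (1033 bases) and Fcnb (1339 bases) were highest in WT replicate 3. Chil3, with 1632 bases, was at 24.8, 23.9, 21.8 and 25.6 CPM in those 4 libraries and reached 172 CPM in WT replicate 3. Pglyrp1, with 1837 bases, was at 146, 109, 82.4 and 92.1 CPM in the 4 and at 11.6 to 95.4 CPM in the others.

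Of the 20 surface and cytosol genes that passed the filter, 0 were called in either transgene comparison, where 2.09% and 1.97% of all genes were. Their medians were −0.66 and −0.62, beside −0.15 for all genes in both. In the test for any difference, which 4.49% of all genes passed, 3 of the 20 passed. They were Fpr1, the receptor for formylated peptides (edgeR FDR = 0.0557), the myeloid receptor gene Trem3 (edgeR FDR = 0.062) and the transcriptional repressor gene Mxd1 (edgeR FDR = 0.0643). Fpr1 was at 8.45 to 19.9 CPM in WT, 9.81 to 16.5 CPM in Card9-/-, 6.95 to 9.87 CPM in 5xFAD and 2.4 to 7.82 CPM in Card9-/-5xFAD, and its FDR in Card9-/-5xFAD against Card9-/- was 0.10002, just above the threshold (log2 fold change −1.28). Csf3r, the receptor of the granulocyte growth factor G-CSF, which microglia also express, was the most abundant of the list, at 205 to 602 CPM, with G0s2 and Ifitm6 next at up to 234 and 129 CPM.

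Of the 18 ligands, receptors and inhibitors tied to these proteins, 11 passed the filter. Cxcl12, the chemokine that holds neutrophils in the marrow, fell by 2.10 on the log2 scale in Card9-/-5xFAD against Card9-/- (edgeR FDR = 0.0941). That was 1 of the 11 genes, in a comparison where 1.97% of all genes passed. Cxcl12 was at 1.41 to 6.87 CPM in Card9-/- and 0.685 to 1.6 CPM in Card9-/-5xFAD, where only 7, 6, 5 and 4 reads stood behind the values. The most abundant were Timp2, an inhibitor of matrix metalloproteinases (180 to 1663 CPM), Lrp1, an uptake receptor for protease complexes (207 to 751 CPM), Csf3r, and Tlr4, a receptor for calprotectin (29.7 to 141 CPM), and none of them passed in any comparison. The gene of G-CSF, Csf3, had 0 counts in all 16 libraries, as did Lrp2, which encodes an uptake receptor for lipocalin 2. Timp1, the tissue inhibitor of Mmp9, had at most 3 reads in a library and did not pass the filter. Cxcl1, a ligand of Cxcr2, was at 1.6 to 9.16 CPM. Csf3, Timp1 and Cxcl1 are named after their values were seen.

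The genes whose levels were most like the mean log2 CPM of the 10 over the 16 libraries were Il18r1 (r = 0.869, rho = 0.959), Cpne2 (r = 0.848, rho = 0.871), Orm1 (r = 0.836, rho = 0.912), AA386476 (r = 0.834, rho = 0.779) and Fam161a (r = 0.819, rho = 0.724). Orm1, an acute-phase protein of the list of granule genes, was the only one of these 5, and of the 20 most alike, on the further neutrophil lists. All 5 were low, with highest values of 3.2 to 12.5 CPM, and the libraries share their depth and scaling among all genes. After the genotype means were subtracted, 6 of the 20 most alike genes were the same.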

How the data were processed

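Total RNA of CD11b+ bead-sorted brain cells was sequenced in 16 libraries, which were grouped by the genotype in their labels. The authors aligned the reads to mm10 with HISAT2, filtered them with Samtools and counted them on genes with HTSeq, and they deposited the read counts as whole numbers without normalization. The settings of the filter, the strand setting and the versions of these tools are not given in the sources used here.

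The counts were tested in R 4.3.3 with edgeR 4.0.16 (TMM, filterByExpr with a minimum count of 10, quasi-likelihood F-test, 4 groups and all 16 libraries in 1 fit), with Benjamini-Hochberg adjustment over 14513 genes and a threshold of 0.1. SEs come from the change and its F statistic. Log2 CPM adds a prior count of 2. The script was tested on simulated counts. Alternatives were DESeq2 1.42.0 on all or only the compared libraries, its size factors, other filters, an FDR of 0.05, a replicate block and leaving out each library. A transcript length covariate, leaving out 5 libraries and the block within each Card9 genotype were chosen after the data were seen.

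The labels number the libraries 1 to 4 without saying what a number marks. Deviations of same-numbered libraries correlated at r = 0.27 to 0.71 between WT and 5xFAD and at 0.13 to 0.73 between Card9-/- and Card9-/-5xFAD, all over 0.1. In each of these 5 of 8 libraries correlated best with their own number. Only these correlations led to the block within each Card9 genotype, and a batch was not established. Across Card9 genotypes some same-numbered libraries had a negative r. WT replicate 1 had r = 0.797 with Card9-/-5xFAD replicate 4, above its 0.708 with 5xFAD replicate 1. The 24 pairs of libraries within genotypes all differed by more than counting noise, with a chi-square of at least 6.28 per degree of freedom.

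All 10 genes are named, with genes of 3 further lists that passed any test and the 4 most abundant of each, and the 5 genes most like the mean of the 10. Genes and lists were chosen from general knowledge, with earlier results of these data known, so no p-value was adjusted over a list alone. Positions come from GENCODE M21 and promoters from RefSeq.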

Additional observations from a re-analysis of the deposited data

Results flagged for a closer look

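Each gene, and the sum of the 10, was looked at within each genotype for a library whose gap to its nearest neighbor took up more than 0.829 of the range of the 4 values, Dixon's critical value at the 95% level. Of 44 sets of 4 libraries, 12 held such a library. The critical value and its chance rate of about 1 in 20 hold for normally distributed values. The ratios were taken on CPM without logs, where high values skew the spread, so the 12 cannot be set against that rate. The sets are also not independent, since the genes share libraries. In every case the library that stood apart was the highest of its set.

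In Card9-/-, replicate 4 stood apart for S100a8 (ratio of gap to range 0.945, at 1790 CPM), S100a9 (0.948, at 3298 CPM), Camp (0.977, at 267 CPM), Retnlg (0.954, at 751 CPM) and the sum of the 10 genes (0.984, at 6398 CPM). In Card9-/-5xFAD, replicate 4 stood apart for S100a8 (0.959, at 1744 CPM), S100a9 (0.972, at 2745 CPM), Camp (0.946, at 614 CPM), Retnlg (0.976, at 612 CPM) and the sum (0.932, at 6057 CPM). WT replicate 1 stood apart for Retnlg (0.871, at 651 CPM) and 5xFAD replicate 3 for Ngp (0.843, at 503 CPM). Card9-/- replicate 4 and Card9-/-5xFAD replicate 4 had the fewest reads on genes, 3229322 and 2970148, and the lowest summed microglia genes. The part of these in the levels was not tested.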

How the results depend on the processing

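In the 3 comparisons of Card9 genotype and interaction, 0 of the 10 genes were called under each alternative run and with any library left out. In 5xFAD against WT the count of 0 rose to 2 with DESeq2 on all libraries, 2 with DESeq2 on the compared groups alone, 2 with the transcript length slope as a covariate and 2 without the 5 libraries under 30000 CPM of microglia genes, and it was 0 to 1 with a library left out. In Card9-/-5xFAD against Card9-/- the count of 1 became 0 with DESeq2 size factors in edgeR, without a filter, with at least 10 counts in every library (Cxcr2 was then not tested), with edgeR on only the groups compared, without those 5 libraries and at an FDR of 0.05, and it was 0 to 1 with a library left out. For any difference among the genotypes the count of 1 became 3 with DESeq2 and 3 with the length covariate, and it was 0 to 3 with a library left out.

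With the replicate number as a block, the counts were 1 in 5xFAD against WT and 2 for any difference; with the block within each Card9 genotype they were 3 in 5xFAD against WT and 5 in Card9-/-5xFAD against Card9-/-.

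Of 518 log2 fold changes of single genes under the alternatives in the transgene comparisons, 462 kept their sign and their side of the threshold and 20 changed sign. Leaving out 1 library moved the value in 5xFAD against WT from −0.77 to 0.33 for S100a8, −0.96 to 0.34 for S100a9, −1.25 to 0.22 for Retnlg and −1.21 to 0.0104 for Ngp. In Card9-/-5xFAD against Card9-/- it moved from −1.97 to 1.57 for S100a8, −2.31 to 1.66 for S100a9, −1.76 to 1.20 for Retnlg and −2.21 to 1.26 for Camp. With at least 10 counts in every library S100a8 had 0.0039, and Camp had −0.18 with the replicate block, −0.96 with the block within each Card9 genotype, −0.64 with the length covariate and −1.48 without the 5 libraries. The cause was not tested. The sum of the 10 genes spanned 12.5-fold between libraries on TMM sizes, 12-fold on size factors and 12.6-fold on raw totals.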

Other observations

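Genes of some other leukocytes were among those whose levels went with the 10 genes over the 16 libraries, as noticed after the values were seen. The B cell genes, by contrast, summed to 446 to 638 CPM in the 4 libraries that led for S100a9 and to 626 to 1199 CPM in the others. Mcpt8, a protease of basophils, had r = 0.812 (rho = 0.912) with the mean log2 CPM of the 10 and reached 44.5 CPM in Card9-/- replicate 4. Ccr2, the chemokine receptor of monocytes, had r = 0.778 (rho = 0.771) and reached 165 CPM in the same library. Prg3, an eosinophil granule gene, had r = 0.776 (rho = 0.779) and reached 13.8 CPM in WT replicate 3. After the genotype means were subtracted, Prg2, the gene of eosinophil major basic protein, had r = 0.771 (rho = 0.803), with its highest level of 235 CPM in WT replicate 3, where Ngp and Lcn2 were also highest.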
